A study of Mus musculus with 38 samples.

Results

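Tcf7 and Lef1 encode TCF-1 and LEF-1, the TCF/LEF factors with an HMG box that are used in T cell development. Their surroundings were read as windows from 100 kb before to 100 kb after each gene body on mm10, and a peak was counted when its centre lay inside. These windows held 229 of the 359759 peaks of 17 lists, with 123 around Tcf7 and 106 around Lef1. Chromatin immunoprecipitation followed by sequencing (ChIP-seq) had been done in Cas9-LP cells, a lymphoid progenitor (LP) line made from mouse fetal liver. The cells of all groups lacked Ebf1, a B-lineage factor, and carried Cas9 knocked in at Rosa26. LP cells grew on mitomycin-treated OP9 stroma without a Notch ligand, Phase 1 cells on OP9-DLL4 stroma, which presents the ligand DLL4, and Phase 2 cells were a later stage of that culture. RUNX1, CTCF, the Mediator subunit Med12 and the acetyltransferase p300 were profiled in LP and Phase 1, and Notch1-IC, the intracellular domain of Notch1, in LP, Phase 1 and Phase 2. RUNX1 was also profiled in LP cells with control guides (sgCont) or guides against Ctcf (sgCTCF), and in Phase 1 cells with sgCont or guides against Med12 (sgMed12). Med12 was also profiled in Phase 1 cells with sgCont or guides against Cbfb, the partner subunit of RUNX proteins (sgCbfb). The 38 samples formed 19 groups of 2 replicates, and 4 of them were inputs without a list.

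TCF-1 is turned on by Notch signaling in early thymic progenitors and takes part in opening T-lineage chromatin. LEF-1 overlaps with it in function. Both proteins bind DNA through the HMG box and work with beta-catenin or with TLE corepressors. RUNX1 binds DNA together with Cbfb, CTCF marks insulators and loop anchors, and Notch1-IC reaches DNA through RBPJ.

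Each list combined both replicates of its group, so no difference between lists could be set against the spread between replicates, and no test was made. The score of a peak is HOMER's normalized peak score, of which the sources used here do not say what it was normalized to. Peaks under a score of 15 had been filtered out before deposit, and 15 was the lowest score in any list. Scores are given here with the rank inside the same list and are not compared between lists. A rank that differs between lists is a description of 1 peak in each, in lists of different length. The read depth of each sample was not used here, so a peak that a list lacks was not detected there and was not shown to be absent. Binding in fewer cells and weaker binding per cell cannot be told apart. The study describes the chromatin from cells with guides as coming from few cells and as noisier, and the RUNX1 lists of those cells held from 874 to 2094 peaks, against 31995 in LP and 38399 in Phase 1 without guides. The Phase 1 and Phase 2 Notch1-IC lists used here held 152 and 352 peaks. The study describes longer lists for these stages, so counts from them are lower bounds and a missing peak was only not in the lists used here. As a check of the labelled cell type, a Med12 or p300 peak lay within 1 kb of a start for 5 of 6 lymphoid progenitor genes in LP (all but Ikzf1) and for 6 of 6 in Phase 1. Of 6 stromal genes, 0 had such a peak in LP and 3 had one in Phase 1 (Col1a1, Col1a2 and Cxcl12, with Pdgfrb, Dcn and Col3a1 at 0). The part of stromal chromatin in the Phase 1 results was not tested.

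The sequences on which the results turn are shown first, from the GRCm38 (mm10) genome and on the strand of the gene. They are the 4 places with a Notch1-IC peak and the places near a start of each gene with a RUNX1 peak. Capitals mark matches to short strings, searched for on both strands. The RUNX strings were TGTGGTT and, as the other form, TGCGGTT. The forms that end in C, TGTGGTC and TGCGGTC, were not searched for and are not in capitals. The RBPJ string was GTGGGAA. The PU.1 string was GAGGAAG. The AP-1 strings were TGAGTCA and, in the other form, TGACTCA. The TCF/LEF strings were CTTTGAT and also the form CTTTGAA. The GATA strings were AGATAAG and also the form TGATAAG. The E protein strings, CACCTG and the palindrome CAGCTG, were also searched for and are left in lower case. A match is a description of the letters and not evidence of binding, and a window without a match says nothing about the factor. The Tcf7 sequences lie at chr11:52314114-52314413, chr11:52318495-52318694 and chr11:52283281-52283480, on the minus strand. The first pair is intergenic, and the last lies before the start within the antisense gene A630014C17Rik, outside annotated exons.
Tcf7 31.4 kb before the start: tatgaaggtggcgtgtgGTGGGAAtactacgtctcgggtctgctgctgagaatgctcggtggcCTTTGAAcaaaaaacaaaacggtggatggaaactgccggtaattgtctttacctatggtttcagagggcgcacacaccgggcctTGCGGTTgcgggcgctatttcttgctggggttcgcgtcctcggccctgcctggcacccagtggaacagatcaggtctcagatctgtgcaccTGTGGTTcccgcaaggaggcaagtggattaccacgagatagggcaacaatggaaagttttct
Tcf7 35.6 kb before the start: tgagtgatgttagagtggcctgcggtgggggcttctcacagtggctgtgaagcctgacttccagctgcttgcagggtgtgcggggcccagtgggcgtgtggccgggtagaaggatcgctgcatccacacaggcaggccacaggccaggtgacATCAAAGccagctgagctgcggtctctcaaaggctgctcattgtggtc
Tcf7 0.362 kb before the start: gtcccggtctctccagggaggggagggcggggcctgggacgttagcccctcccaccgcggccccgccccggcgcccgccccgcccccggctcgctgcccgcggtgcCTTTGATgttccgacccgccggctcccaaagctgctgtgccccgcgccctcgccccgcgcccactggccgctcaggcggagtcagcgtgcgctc
The Lef1 sequences lie at chr3:131019703-131019902 (intergenic), chr3:131112206-131112405 (an intron of the transcripts from the first start) and chr3:131208641-131208840 (intron 11 of 11), on the plus strand.
Lef1 90.7 kb before the start: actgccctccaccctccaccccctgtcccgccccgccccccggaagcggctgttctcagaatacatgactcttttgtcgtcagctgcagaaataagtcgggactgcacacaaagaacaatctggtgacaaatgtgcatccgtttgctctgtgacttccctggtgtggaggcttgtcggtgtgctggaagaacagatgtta
Lef1 1.80 kb after the start: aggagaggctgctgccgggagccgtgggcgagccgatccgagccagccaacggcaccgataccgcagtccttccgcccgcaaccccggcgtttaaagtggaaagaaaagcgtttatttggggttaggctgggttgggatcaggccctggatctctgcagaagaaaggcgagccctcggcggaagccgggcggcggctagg
Lef1 98.2 kb after the start: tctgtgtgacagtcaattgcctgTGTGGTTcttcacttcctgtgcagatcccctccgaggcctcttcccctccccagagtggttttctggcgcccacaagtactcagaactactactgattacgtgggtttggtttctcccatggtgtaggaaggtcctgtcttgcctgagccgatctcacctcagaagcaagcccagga

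The windows also took in neighbours. Tcf7 (chr11:52252371-52283014, minus strand, 30.6 kb) shared its window of 230.6 kb with Skp1a, Olfr1371 and part of Vdac1. Lef1 (chr3:131110471-131224356, plus strand, 113.9 kb) shared its window of 313.9 kb with Hadh, Cyp2u1 and part of Sgms2. Peaks at the promoters of these genes were counted, and which gene any distal peak acts on was not measured. RUNX1 had 10 peaks around Tcf7 in LP and 11 in Phase 1, and 9 and 12 around Lef1. Per 100 kb this came to 4.34 and 4.77 around Tcf7 and to 2.87 and 3.82 around Lef1. Over windows of the same kind at 21911 protein-coding genes, the median was 2.20 in LP and 2.61 in Phase 1, and the 90th percentile was 6.61 and 6.92. Both genes thus lay between the median and the 90th percentile for RUNX1. The densest list around Tcf7 was Phase 1 p300, with 6.94 peaks per 100 kb, a density that 14.9% of genes reached. Around Lef1 the same list had 3.82 per 100 kb, which 44.7% of genes reached.

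**Figure D1:**
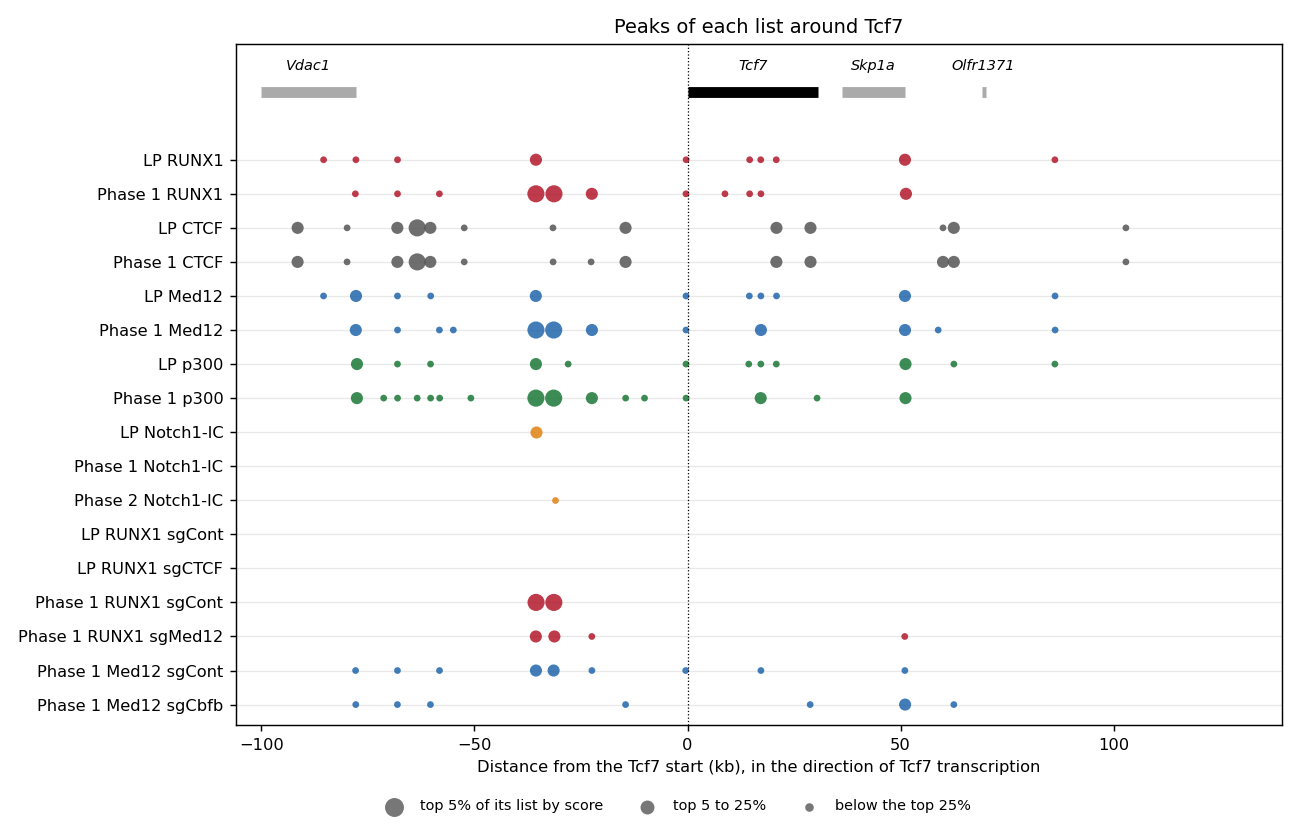
Peaks around Tcf7, with 1 line per list and the distance from the Tcf7 start in kb on the horizontal axis (negative values lie before the start). Dot size gives the rank of the peak inside its own list, colour the ChIP target, and the bars protein-coding genes. The Phase 1 RUNX1, Med12 and p300 lists have dots 22.4, 31.4 and 35.6 kb before the start, and the LP lists of these targets have 1 only at 35.6 kb.

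**Figure D2:**
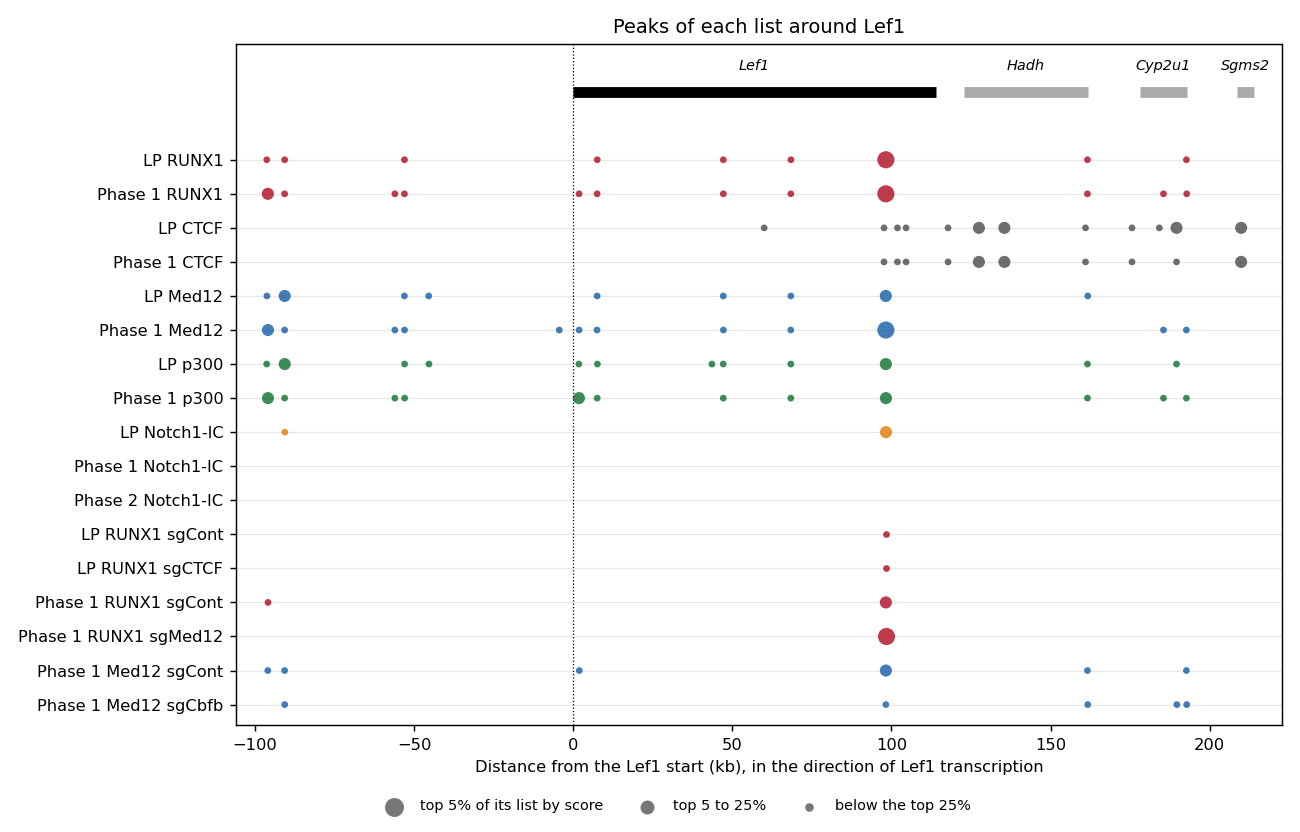
Peaks around Lef1, drawn in the same way, with the distance from the first Lef1 start in kb on the horizontal axis. The site 98.2 kb after the start has a dot in each RUNX1, Med12 and p300 list. The CTCF dots all lie 60.0 kb or more after the start.

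Peaks of both stages were compared to see which RUNX1 sites were found with and without Notch ligand. Around Tcf7, 7 RUNX1 peaks were found in both stages, 3 were LP-specific and 4 were Phase 1-specific, that is, without an overlapping RUNX1 peak in the other stage. Around Lef1, 8 were found in both, 1 was LP-specific and 4 were Phase 1-specific. In the whole lists, 16.8% of LP peaks and 30.7% of Phase 1 peaks were stage-specific. With so few peaks, the counts at the genes are not read as different from these shares. The Phase 1-specific peaks around Tcf7 scored 252.5, 152.1, 56.0 and 15.9, beside a median of 23.2 over all 11789 Phase 1-specific RUNX1 peaks. By score they were ranks 14, 64, 981 and 10744 of those 11789. The 4 around Lef1 scored 106.5, 43.1, 27.8 and 25.2, at ranks 190, 1751, 4224 and 5100. The Phase 1-specific peaks of Tcf7 thus included a pair near the top of their class and 1 near its bottom. The LP-specific peaks scored 15.6, 22.7 and 24.8 around Tcf7 and 38.4 around Lef1, beside a median of 22.8 over all 5385 LP-specific RUNX1 peaks. They were ranks 5079, 2703 and 2260 of their class around Tcf7 and rank 881 around Lef1.

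**Figure D3:**
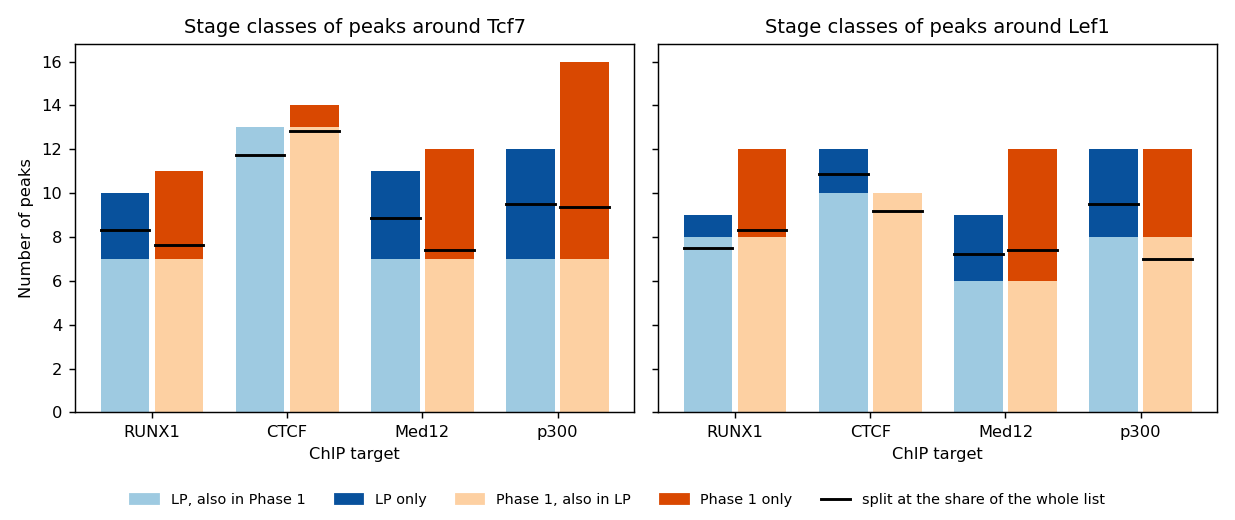
Number of peaks around Tcf7 (left) and Lef1 (right) by ChIP target, LP in blue and Phase 1 in orange, with peaks found in both stages pale and stage-specific ones dark. The black line splits each bar at the share of the whole list. Of 16 Phase 1 p300 peaks around Tcf7, 9 were stage-specific, and of 13 LP CTCF peaks 0 were.

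The site 31.4 kb before Tcf7 held the highest Med12 and p300 peaks of the window in Phase 1. Its RUNX1 peak (252.5) was rank 1232 of 38399, its Med12 peak (240.8) rank 541 of 39132 and its p300 peak (481.0) rank 479 of 49116. The LP lists had no RUNX1, Med12 or p300 peak there. CTCF was found in both stages, at 33.5 in LP (the top 72.2% of the list) and 112.2 in Phase 1 (the top 34.3%), so that CTCF was the sole target with an LP peak at this site. The Phase 2 Notch1-IC peak (chr11:52314079-52314251, score 26.4, rank 115 of 352) lay at its edge. It shared 52 bp with the Phase 1 RUNX1 peak (chr11:52314200-52314528), and the centres were 199 bp apart. The Phase 1 Med12 and p300 peaks started 13 bp beyond the Notch1-IC peak, and the CTCF peaks 99 bp beyond it in Phase 1 and 141 bp in LP. The study describes a Tcf7 enhancer at this distance as bound by Notch1-IC, RUNX1, Med12 and p300, particularly after Notch stimulation. The Phase 1 Notch1-IC list used here had no peak there. In the sequence printed above, the RBPJ string (positions 18 to 24 from its 5′ end) lay inside the Phase 1 RUNX1, Med12, p300 and CTCF peaks and outside the Notch1-IC peak. The RUNX string at positions 239 to 245 lay inside the Notch1-IC peak and shared letters with an E protein string at 235 to 240. The other RUNX string, at 148 to 154, lay inside the RUNX1 peak.

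The site 35.6 kb before Tcf7 was found in both stages and held the highest RUNX1 peak of the window in each. RUNX1 scored 192.1 in LP (rank 1937 of 31995) and 314.2 in Phase 1 (rank 622 of 38399). Med12 scored 152.7 (the top 10.5%) and 204.4 (the top 2.36%), and p300 scored 225.9 (the top 7.16%) and 293.3 (the top 3.36%). All 3 targets ranked higher in the Phase 1 list than in the LP list. An LP Notch1-IC peak (chr11:52318494-52318700, score 30.2, rank 333 of 1585) lay inside these peaks, with its centre 3 bp from that of RUNX1. The short Phase 1 and Phase 2 Notch1-IC lists had no peak listed there. The sequence held a TCF/LEF string at positions 153 to 159 and no match to the RUNX or RBPJ strings as searched for. It also held TGCGGTC and TGTGGTC, which differ from the RUNX strings in the last letter alone and were not searched for.

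The remaining Phase 1-specific RUNX1 peaks with scores of 30 or more around Tcf7 lay 22.4 and 58.2 kb before the start. At 22.4 kb, RUNX1 scored 152.1 (the top 10.6%), Med12 149.3 (the top 6.12%) and p300 167.8 (the top 10.2%), and a Phase 1-specific CTCF peak of 49.4 overlapped them. At 58.2 kb, RUNX1 scored 56.0, Med12 34.3 and p300 51.8, with no CTCF peak. None of these targets had an LP peak at either place. Sequences 200 bp wide at the RUNX1 centres held a RUNX and a GATA string at 22.4 kb and an AP-1 string at 58.2 kb.

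At the Tcf7 start the RUNX1 peaks were weak and were found in both stages, 330 bp (LP) and 367 bp (Phase 1) before the first start (position 52283014). RUNX1 scored 16.3 in LP (the top 96.4%) and 35.6 in Phase 1 (the top 58.6%). Med12 scored 25.1 (the top 78.7%) and 47.7 (the top 42.3%), and p300 scored 17.5 (the top 93.7%) and 25.6 (the top 74.1%). The promoter thus ranked below the site 35.6 kb upstream in all 6 lists. Its sequence was 79.0% G and C and held a TCF/LEF string at positions 107 to 113. Inside the gene, a site 17.2 kb after the start, singled out after its values were seen, was found in both stages, with RUNX1 in the top 59.8% of the LP list and the top 35.2% of the Phase 1 list. There Med12 was in the top 74.8% and 24.3%, and p300 in the top 50.7% and 10.3%.

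Lef1 had its highest RUNX1, Med12 and p300 peaks of both stages at 1 site, 98.2 kb after the first start and inside the gene. RUNX1 scored 215.6 in LP (rank 1424 of 31995) and 347.5 in Phase 1 (rank 435 of 38399). Med12 scored 165.2 (the top 8.90%) and 232.6 (the top 1.54%), while p300 scored 248.1 (the top 5.86%) and 225.1 (the top 5.95%). RUNX1 and Med12 ranked higher in Phase 1 than in LP there, and p300 held nearly the same place in both lists. An LP Notch1-IC peak (chr3:131208658-131208864, score 32.5, rank 282 of 1585) lay inside them. The sequence held a RUNX string at positions 24 to 30. A CTCF peak of both stages (42.4 and 48.3) lay beside the site, 306 bp from the Notch1-IC peak in LP and 301 bp in Phase 1.

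The site 90.7 kb before Lef1 also held an LP Notch1-IC peak (chr3:131019715-131019921, score 18.4, rank 990 of 1585) and was found in both stages, but its ranks were higher in LP. RUNX1 scored 82.4 in LP (the top 28.4%) and 51.5 in Phase 1 (the top 43.8%). Med12 scored 114.4 (the top 18.2%) and 49.1 (the top 41.1%), and p300 scored 204.3 (the top 8.90%) and 75.3 (the top 31.2%). This was the opposite order to that of the site 35.6 kb before Tcf7. Of the strings searched for, the printed sequence held an E protein string alone.

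At the Lef1 starts, the nearest RUNX1 centre to the first one (position 131110471) lay 1835 bp away in Phase 1 and 7548 bp away in LP. The start at position 131112797, used by 2 transcripts, had the Phase 1-specific RUNX1 peak of 43.1 (the top 50.7%) 491 bp before it. Med12 had a peak there in Phase 1 (27.2) and none in LP, and p300 scored 25.9 in LP (the top 77.7%) and 95.0 in Phase 1 (the top 23.8%). Neither gene had a Notch1-IC peak at a start.

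The LP-specific and the highest Phase 1-specific RUNX1 peak of Lef1 were neighbours, 95.9 kb before the start. The LP peak (chr3:131013995-131014335, score 38.4, the top 58.5%) and the Phase 1 peak (chr3:131014348-131014676, score 106.5, the top 19.3%) were 12 bp apart, with 347 bp between the centres. Med12 and p300 were arranged in the same way, with LP and Phase 1 centres 345 and 394 bp apart. All 3 targets thus had adjoining and not overlapping peaks in the 2 stages. In the whole lists, 7.82% of the LP-specific and 3.84% of the Phase 1-specific RUNX1 peaks had a peak of the other stage within 500 bp. For Med12 these shares were 7.2% and 3.43%, and for p300 9.6% and 3.43%. Most RUNX1 peaks overlapped Med12 and p300 of the same stage, so the 3 targets are not separate observations. Counted as found in both stages at that distance, Lef1 had 0 LP-specific and 3 Phase 1-specific RUNX1 peaks. The sequences under both RUNX1 centres (chr3:131014065-131014264 and chr3:131014412-131014611, plus strand) were chosen for printing after the values were seen. Each held a TCF/LEF string, and the Phase 1 sequence also held a PU.1 string. The Phase 1 sequence held GACCACA as well, which reads TGTGGTC on the other strand, a form that was not searched for.
Lef1 95.9 kb before the start, LP centre: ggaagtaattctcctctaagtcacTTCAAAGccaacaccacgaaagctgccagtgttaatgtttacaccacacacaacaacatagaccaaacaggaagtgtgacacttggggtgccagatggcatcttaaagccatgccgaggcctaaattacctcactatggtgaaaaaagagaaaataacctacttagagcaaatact
Lef1 95.9 kb before the start, Phase 1 centre: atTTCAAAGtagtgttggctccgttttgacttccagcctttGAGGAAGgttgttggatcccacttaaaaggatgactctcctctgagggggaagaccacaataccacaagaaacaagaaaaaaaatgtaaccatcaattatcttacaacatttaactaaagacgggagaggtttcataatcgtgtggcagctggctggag

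Coactivators were read at the RUNX1 peaks of the same stage. Of 10 LP RUNX1 peaks around Tcf7, 10 overlapped Med12 and 9 overlapped p300, and of 9 around Lef1, 8 and 8 did. The shares of the LP list were 84.7% for Med12 and 90.8% for p300. In Phase 1, 9 of 11 around Tcf7 overlapped Med12 and 8 of 11 overlapped p300, and around Lef1 11 and 12 of 12 did, beside 86% and 87.8% of the list. Of the 8 Phase 1-specific RUNX1 peaks of both windows, 7 overlapped Phase 1 Med12 and 7 overlapped p300, beside 75% and 79.6% of all Phase 1-specific peaks. The exception for both was the weakest, at 15.9 in a Tcf7 intron. These counts lay near the shares of the lists.

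The coactivator peaks themselves also differed between the stages. Around Tcf7, 4 of 11 LP Med12 peaks and 5 of 12 Phase 1 Med12 peaks were stage-specific, and around Lef1 3 of 9 and 6 of 12 were, beside 19.5% and 38.2% of the lists. The highest LP-specific Med12 peak around Lef1 (80.2) lay at the Hadh promoter. Both Phase 1 Med12 lists with guides had a peak there (50.5 with sgCont and 56.8 with sgCbfb), so that call held only between the lists without guides. For p300, 5 of 12 LP peaks and 9 of 16 Phase 1 peaks were stage-specific around Tcf7, and 4 of 12 and 4 of 12 were around Lef1, beside 20.7% and 41.6% of the lists. The 9 around Tcf7 comprised the sites 22.4, 31.4 and 58.2 kb before the start and 6 peaks with scores from 16.5 to 27.9. With a minimum score of 30, the stage-specific p300 peaks of both stages around Tcf7 went from 14 to 3.

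CTCF was found at nearly the same places in both stages. Around Tcf7, 0 of 13 LP peaks and 1 of 14 Phase 1 peaks were stage-specific, and around Lef1 2 of 12 and 0 of 10 were, beside 9.55% and 8.35% of the lists. The Phase 1-specific one was that 22.4 kb before Tcf7, and the LP-specific pair of Lef1 scored 16.8 and 23.1. The highest CTCF peak lay 63.4 kb before Tcf7 (276.0 in LP and 350.1 in Phase 1), and for Lef1 127.5 kb after the start, in Hadh (213.8 and 197.0). CTCF overlapped 2 of 10 LP RUNX1 peaks around Tcf7 and 0 of 9 around Lef1 (23.2% of the list), and in Phase 1 it overlapped 3 of 11 and 0 of 12 (15.7%). Among the LP-specific RUNX1 peaks, 1 of 3 around Tcf7 and 0 of 1 around Lef1 overlapped LP CTCF, beside 36.8% of all LP-specific ones. That peak (24.8), named here for this overlap, lay in a Tcf7 intron 20.8 kb after the start. CTCF scored 185.2 in LP and 238.8 in Phase 1 there, and Med12 (23.3) and p300 (28.1) had peaks in LP alone. Among the 4 Phase 1-specific RUNX1 peaks around Tcf7, those 22.4 and 31.4 kb before the start overlapped CTCF, beside 6.96% of all Phase 1-specific RUNX1 peaks. With centres within 100 bp asked for in place of 1 shared base, the 3 Phase 1 RUNX1 peaks with CTCF around Tcf7 became 1, that 68.1 kb before the start, which was found in both stages and lay 37 bp from the CTCF centre. The Phase 1-specific ones, whose centres lay 168 and 200 bp from those of CTCF, went from 2 of 4 to 0 of 4, beside 3.24% of all Phase 1-specific RUNX1 peaks. Overlapping peaks chained into 31 sites around Tcf7, of which 4 held RUNX1, CTCF, Med12 and p300, and into 27 around Lef1, of which 0 did.

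The CTCF peaks were placed differently along the genes. Around Lef1, all lay 60.0 kb or more after the start, and none lay in the stretch before that point, where 7 sites held RUNX1, Med12 and p300. Around Tcf7, 9 of the 14 CTCF sites lay before the start and 5 after it. Within 1 mismatch of the CTCF consensus in the 200 bp at the centre, 10 of the 14 Tcf7 sites held a match, 4 in the direction of the gene and 6 against it. At Lef1 9 of 12 sites did, 6 in the direction of the gene and 3 against it. In the whole lists 62.9% of LP and 63.4% of Phase 1 CTCF peaks held one, against 2.51% and 2.49% of windows 2 kb to either side.

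Guides against Ctcf, Med12 and Cbfb were used to ask how these factors depend on each other. In LP, the short RUNX1 lists with sgCont and with sgCTCF had no peak around Tcf7. Around Lef1 they had 1 each, at the site 98.2 kb after the start, at 25.1 with sgCont (rank 551 of 975) and 26.4 with sgCTCF (rank 430 of 874). In the whole list 59.1% of sgCont peaks were found again with sgCTCF. The Ctcf guides thus could not be read at Tcf7, where 10 LP RUNX1 peaks were listed without guides.

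In Phase 1, the RUNX1 list with sgCont had 2 peaks around Tcf7, 31.4 and 35.6 kb before the start, and both were found again with sgMed12, beside 71% of the list. The peak at 35.6 kb scored 61.2 with sgCont (rank 38 of 1550) and 37.0 with sgMed12 (rank 134 of 2094). The peak at 31.4 kb scored 55.4 (rank 62) and 30.5 (rank 316). Without replicate values, these ranks are not read as a change. The study describes RUNX1 at the Tcf7 enhancer at 31 kb as unaffected by loss of Med12. At 31.4 kb the RUNX1 centre lay 231 bp from the Phase 2 Notch1-IC centre with sgCont and 99 bp from it with sgMed12, and with centres within 100 bp asked for, 1 of the 2 Tcf7 peaks was found again. The sgMed12 list also had peaks at the Skp1a promoter (18.8) and 22.4 kb before Tcf7 (18.9) that sgCont lacked, as did 47.4% of the sgMed12 list. Around Lef1, 1 of 2 sgCont RUNX1 peaks was found again, that 98.2 kb after the start, at rank 81 with sgCont (51.5) and rank 24 with sgMed12 (47.5). The other, 95.9 kb before the start (22.5), was not.

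**Figure D4:**
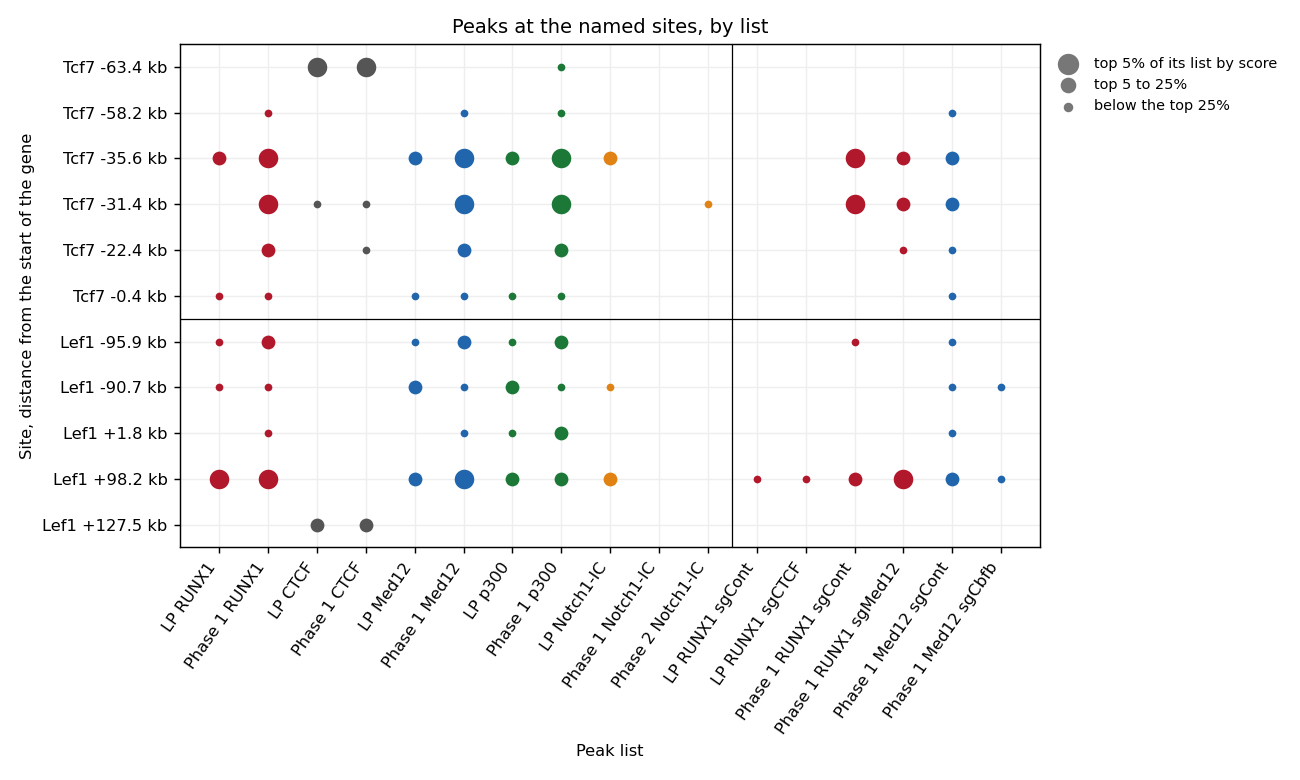
Sites named by rule (vertical axis, with the distance from the start in kb) and the 17 lists (horizontal axis, guide lists right of the black line). Dot size gives the rank inside the list, colour the ChIP target, and an empty place means that the list has no peak. Of the 6 Tcf7 sites, 5 have a dot for Med12 with sgCont and 0 with sgCbfb, and of the 5 Lef1 sites, 4 and 2 do.

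The Med12 lists with guides were longer, with 19053 peaks for sgCont and 18099 for sgCbfb. Around Tcf7, 3 of 9 sgCont Med12 peaks were found again with sgCbfb, and around Lef1 4 of 6 were, beside 67.8% of the list. The 3 kept around Tcf7 were at the Skp1a promoter (46.1 with sgCont and 64.8 with sgCbfb), at the Vdac1 promoter (50.0 and 46.5) and at a CTCF site 68.1 kb before the start (33.3 and 38.1). The 6 not found again were those 0.362, 22.4, 31.4, 35.6 and 58.2 kb before the start and that 17.2 kb after it. They included the highest sgCont Med12 peaks of the window, at 35.6 kb (99.9, rank 1514 of 19053) and 31.4 kb (96.0, rank 1686). From 17.2 kb after the Tcf7 start to 58.2 kb before it, no sgCont Med12 peak was thus found again with sgCbfb. This stretch was marked off after the values were seen, and the next RUNX1 site, 68.1 kb before the start, kept its Med12 peak. All 6 peaks not found again overlapped a Phase 1 RUNX1 peak, and so did the 3 that were kept. In the list, 93.6% of the Med12 peaks seen with sgCont and not sgCbfb did.

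Around Lef1 the kept Med12 peaks were at the Hadh and Cyp2u1 promoters and at both sites with an LP Notch1-IC peak. Neither site had one in the Phase 1 or Phase 2 list. The site 98.2 kb after the start was rank 3323 of 19053 with sgCont (71.1) and rank 11992 of 18099 with sgCbfb (26.9). The site 90.7 kb before it was rank 12612 (26.8) and rank 8574 (38.4). With no replicate values, these ranks are not read as a change. The peaks 95.9 kb before the start (25.9) and 1.80 kb after it (23.1) were not found again. Outside promoters, 1 of 6 sgCont Med12 peaks around Tcf7 and 2 of 3 around Lef1 were found again, beside 49.8% of such peaks in the list.

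The sgCbfb list also had Med12 peaks that the sgCont list lacked, 4 around Tcf7 and 1 around Lef1, beside 28.6% of the list. They lay 62.5 and 28.8 kb after and 14.5 and 60.3 kb before the Tcf7 start, and 189.7 kb after the Lef1 start, and scored from 15.3 to 22.0. All 5 overlapped a Phase 1 CTCF peak and 0 overlapped a Phase 1 RUNX1 peak. Without guides, the place 60.3 kb before Tcf7 had an LP Med12 peak (25.7) and p300 peaks in both stages. Those 62.5 kb after the Tcf7 start and 189.7 kb after the Lef1 start had a p300 peak in LP. That 14.5 kb before Tcf7 had one in Phase 1, and that 28.8 kb after its start had no Med12 or p300 peak. In the whole lists, 44.5% of the Med12 peaks seen with sgCbfb and not sgCont overlapped Phase 1 CTCF, against 13.6% of those seen with sgCont and not sgCbfb. Of the former, 38.6% overlapped a Phase 1 RUNX1 peak. Of the 6 such sgCont peaks around Tcf7, 2 overlapped CTCF, and of the 2 around Lef1, 0 did. All 9 sgCont Med12 peaks around Tcf7 and 5 of 6 around Lef1 were also in the Phase 1 Med12 list without guides, beside 93.2% of the list.

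Notch1-IC peaks were few around both genes. The LP list, from cells without ligand, was the longest Notch1-IC list, with 1585 peaks against 152 in Phase 1 and 352 in Phase 2. In LP, 18.9% of protein-coding genes had a Notch1-IC peak in a window of this kind, in Phase 1 2.84% and in Phase 2 4.68%. Tcf7 had 1 in LP and 1 in Phase 2, and Lef1 had 2 in LP. Neither had one in the Phase 1 list, which held 152 peaks in all. All 3 LP peaks overlapped an LP RUNX1 peak, as did 89.2% of the LP Notch1-IC list, and the Phase 2 peak overlapped a Phase 1 RUNX1 peak, as did 74.1% of its list. In the 200 bp at the centre, 0 of the 4 held the RBPJ string. That string was in 4.42% of the LP Notch1-IC peaks, against 4.23% of flanking windows, and in 26.5% of the Phase 2 peaks, against 4.08%. In the Phase 1 peaks it was in 36.2%, against 4.28%. The LP list thus held the string about as often as its flanks. What the LP Notch1-IC peaks reflect was not tested.

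The short strings were counted in the 200 bp at each RUNX1 centre, with RUNX forms that end in C left out. A RUNX string was in 2 of 10 LP and 3 of 11 Phase 1 peaks around Tcf7 and in 4 of 9 and 4 of 12 around Lef1. In the whole lists it was in 21.2% and 25.4%, against 5.72% and 5.64% of flanking windows. The TCF/LEF string, the letters that the products of these genes recognise, was in 2 of 10 LP and 4 of 11 Phase 1 peaks around Tcf7 and in 1 of 9 and 1 of 12 around Lef1. In the whole lists it was in 4.82% and 6.02%, against 7.61% and 7.57% of flanking windows, so it was less frequent at RUNX1 peaks than beside them. Around Tcf7 its Phase 1 matches were at the start, 31.4 and 35.6 kb before it, and at the Skp1a promoter.

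Other genes of the pathway were read with the same windows, from a list of 14 TCF/LEF relatives, beta-catenin partners and corepressors. All 14 had a Phase 1-specific RUNX1 peak, 11 had more RUNX1 peaks in Phase 1 than in LP, and 2 (Ctbp1 and Pygo2) had fewer. Over all 21911 protein-coding genes, 66.5% had a Phase 1-specific RUNX1 peak in such a window and 45.8% had more RUNX1 peaks in Phase 1 than in LP. Such a peak with a score of 100 or more was found at 2 of the 14, at Axin2, a negative regulator of beta-catenin (275.6), and at the corepressor gene Tle3 (103.4), beside 5.28% of all genes. An LP Notch1-IC peak was found at 4 (Tcf7l1, Tle2, Tle3 and Bcl9l), and a Phase 1 or Phase 2 one at 0. With 14 genes, these counts are not read as particular to the pathway.

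The genes with the most similar numbers of peaks over the 17 lists were Fbxo45, Slc4a8 and Fut11 for Tcf7, with mean absolute differences of 0.706, 0.706 and 0.765 peaks per list. Fbxo45 and Fut11 each had 1 Phase 2 Notch1-IC peak, as Tcf7 had. For Lef1 they were Ctrc, Spata5 and 2410131K14Rik, with 0.529, 0.529 and 0.588. Between Tcf7 and Lef1 the difference was 1.47, and the median over all genes was 3.91 from Tcf7 and 3.35 from Lef1. The lists share cells and antibodies and the windows differ in length, so the likeness describes counts alone.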

How the data were processed

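ChIP-seq was analysed from 17 peak lists, each made by the authors from the 2 replicates of a group, which the study gives as biological. Per the submitters' processing notes, reads were demultiplexed with bcl2fastq 1.8.4 and aligned with Bowtie 1.1.1 to mm10, and peaks were called with HOMER. Per the study's methods, peaks reproducible between replicates by the irreproducible discovery rate were kept. The deposited score is the authors' normalized HOMER peak score, with what it was normalized to not given in the sources used here, and peaks under 15 were removed by the authors. The 4 input samples had no list used here, and the read depth of each sample was not used. The Phase 1 and Phase 2 Notch1-IC lists were shorter than the study's text describes, and the reason was not established.

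The members and lists of genes were chosen with earlier results of these data known. Overlap was 1 bp or more. A site was named if it held a Notch1-IC peak, a stage-specific RUNX1 peak with a score of 30 or more, or the highest peak of a list without guides in its window, or lay at a start of Tcf7 or Lef1. No site lay over a start, and within 500 bp was taken instead, after the files were seen. The genes most alike were the 3 with the smallest mean absolute difference in peak number over the lists, with windows that did not overlap. Gene models were GENCODE M21. Of all peaks, 122 lay on other sequences and 0 ran past a chromosome end. Strings were searched for in 200 bp at peak centres and 2 kb to either side. Python 3.11.15, numpy 2.4.6, pandas 2.3.3, matplotlib 3.10.9, pysam 0.24.0 and samtools 1.23.1 were used, and the scripts were tested on simulated data. Alternatives were other windows, a minimum score, promoters left out, centre distance, a peak within 500 bp, reciprocal overlap, chaining within 250 bp, equal numbers of top-scored peaks, and other string windows and mismatches.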

Additional observations from a re-analysis of the deposited data

How the results depend on the processing

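No paired analysis was possible because each list combines its replicates, and leaving out each replicate could not be run for the same reason. For 44 counts, which have no direction that could turn, 49 recomputed values moved and 105 did not, where moved means by over 1.5 times or to or from 0. With windows of 50 kb, all peaks became 75 (Tcf7) and 62 (Lef1), LP-specific RUNX1 peaks 1 and 0, Phase 1-specific RUNX1 peaks around Lef1 1, single-stage CTCF peaks around Lef1 1, single-stage Med12 peaks 5 and 4, and single-stage p300 peaks 9 and 2. With 200 kb, all peaks around Tcf7 became 215, Phase 1-specific RUNX1 peaks 9 and 8, single-stage CTCF peaks around Tcf7 2, Med12 peaks 16 and 16, and p300 peaks 24 and 15. With a score of at least 30, all peaks became 81 and 70, and LP-specific RUNX1 peaks around Tcf7 0. Single-stage CTCF peaks then became 2 and 0, Med12 peaks around Lef1 4 and p300 peaks around Tcf7 3. LP RUNX1 peaks around Tcf7 with CTCF became 1, those with Med12 4 at each gene and those with p300 5 at each gene, and Phase 1 RUNX1 peaks around Lef1 with Med12 became 6. Peaks found again around Lef1 became 0 with sgCTCF and 1 with sgCbfb. With centres within 100 bp, LP-specific RUNX1 peaks around Tcf7 became 5, Phase 1 RUNX1 peaks with CTCF there 1, the Phase 1-specific ones among them 0 (an alternative chosen after seeing the data), and peaks found again there with sgMed12 1. With a peak of the other stage within 500 bp, LP-specific RUNX1 peaks around Lef1 became 0. In string windows of 100 bp, RUNX strings were in 1 LP peak of each gene and 2 Phase 1 peaks of Lef1. CTCF strings, exact in 2 LP and 2 Phase 1 peaks of Tcf7 and in 1 and 1 of Lef1, became 9, 10, 9 and 8 with 1 mismatch and 11, 12, 12 and 10 with 2. Any overlap with the window, chaining within 250 bp, reciprocal overlap, promoters left out, equal numbers of top-scored peaks and string windows of 400 bp moved 0 counts. Fewer or more peaks enter by construction under the windows and the minimum score, and for the other settings the cause was not tested.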
